A study of Mus musculus with 6 samples.

Results

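The ErbB receptors and the growth factors that bind them were followed in 6 expression arrays of sorted mouse breast cancer cells. The family was taken as 10 genes, 4 receptors (Egfr, Erbb2, Erbb3, Erbb4) and 6 ligands (Areg, Ereg, Hbegf, Tgfa, Btc, Nrg1), and every probe set whose only gene symbol in the platform annotation was one of these was kept. This gave 20 probe sets of 9 genes, 11 for the receptors and 9 for 5 ligands, out of 18193 genes in all. Areg matched no probe set by this rule and was not analysed here. Per the labels, 3 arrays held cells sorted as positive for both CD24 and CD29 (CD24+CD29+) and 3 held cells negative for both (CD24-CD29-), all labelled breast cancer stem cells with growth in serum-containing medium. The line or tumour of origin, strain, genotype and age are not stated in the labels. The design text speaks of independent biological sample sets but does not say whether these were separate cultures, sorts or animals, so p-values measure the spread between these samples, which may in part be technical.

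ErbB receptors are transmembrane tyrosine kinases that pair with each other when a ligand binds, and the pair then feeds the Ras-ERK and PI3K-AKT pathways. EGFR binds EGF, TGF-alpha, amphiregulin and epigen. Betacellulin, HB-EGF and epiregulin bind both EGFR and ERBB4. Of the neuregulins, NRG1 and NRG2 bind ERBB3 and ERBB4, and NRG3 and NRG4 bind ERBB4. ERBB2 has no known ligand of its own and acts as a partner, and ERBB3 has very weak kinase activity and signals through its partners. The ligands are made as membrane-bound precursors that metalloproteinases release. In the mammary gland EGFR and amphiregulin are needed for duct growth, ERBB4 and neuregulin act in lobule and milk development, and ERBB2 is amplified in a subset of human breast cancers.

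Values were on the log2 scale, so a difference of 1 is a 2-fold difference, and all differences are CD24+CD29+ minus CD24-CD29-. Each gene was represented by its brightest probe set. Those with names ending in _x_at, marked as able to cross-hybridise, were left out where another existed. Probe sets ending in _s_at were kept, among them the main ones of Lrig3 and Fbxl20. A difference was called when its limma p-value, after Benjamini-Hochberg adjustment across the 18193 genes, was under 0.05. Calls were common on these arrays: 70.8% of all genes passed, 34.4% as higher and 36.5% as lower in CD24+CD29+ cells, and the groups did not overlap for 73.6%. A call therefore says little by itself, and the size of a difference is the more telling value. Only 4.67% of genes passed and also differed by at least 2-fold, 3.01% as higher and 1.66% as lower. The values are relative to the other genes on an array: the spiked-in poly-A controls read higher, by a median of 1.17, in the CD24-CD29- group, and scaling to them moved the median difference of all genes from -0.035 to 1.19. Under that scaling 99.3% of the called genes were higher, against 48.5% as deposited. The sample sets are bulk RNA, so fewer cells expressing a gene and less RNA of it per cell cannot be told apart.

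Among the members, 6 of 9 genes rose in CD24+CD29+ cells, 2 fell and 1 did not pass, and their median difference was 0.44, against -0.035 for all genes. The median of all genes varied with level, from -0.22 at means of 5 to 6 to 0.25 at means of 8 to 9. Rises were common at the levels of Ereg (8 to 9), Erbb2 (9 to 10) and Egfr (10 to 11). There 58.8%, 57.7% and 55.3% of genes were called higher. Egfr, Erbb2 and Erbb4 rose and Erbb3 fell. Of the ligands, Ereg, Btc and Nrg1 rose, Hbegf fell and Tgfa did not pass on its main probe set. Egfr was the only one of the 9 to differ by at least 2-fold. The falls of Erbb3 and Hbegf are relative to the other genes, since both turned to a positive difference, 0.78 and 0.69, with scaling to the poly-A controls. The groups did not overlap for 8 of the 9 genes, all but Tgfa. With 70.8% of all genes called, a count of 8 called of 9 does not set the family apart.

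**Figure D1:**
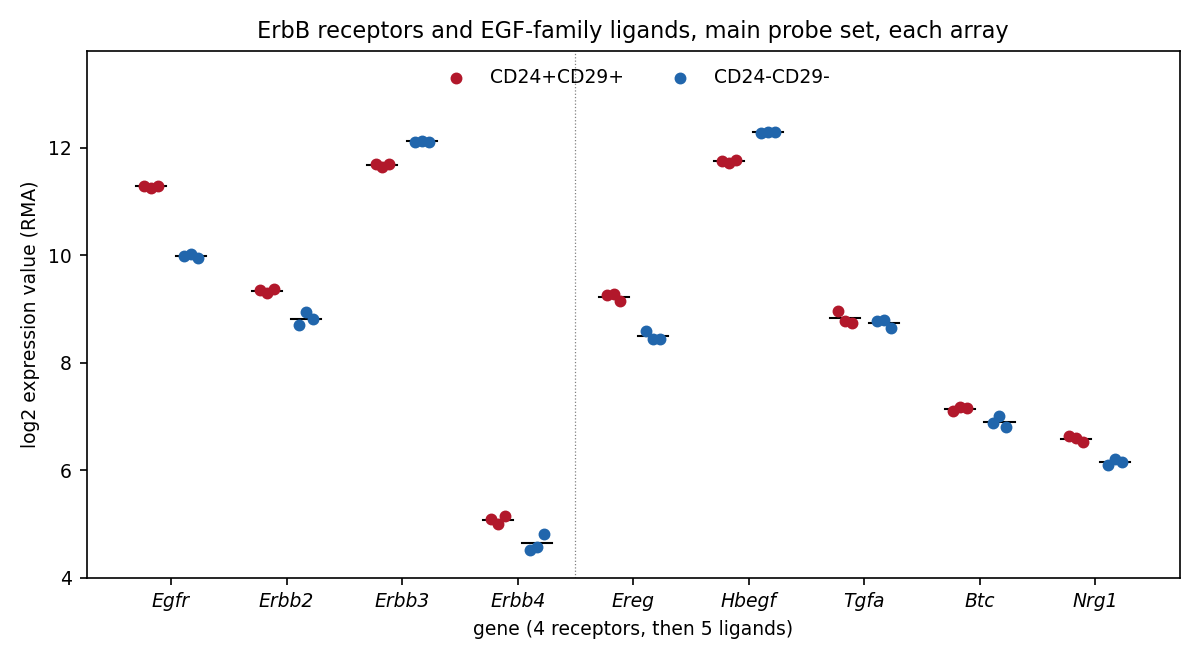
Log2 expression value of the main probe set of each member on each of the 6 arrays, with a bar at the mean of 3 arrays; red, CD24+CD29+, blue, CD24-CD29-. Levels of different genes come from different probes and cannot be compared. The groups are apart for each gene shown except Tgfa, with the widest gap for Egfr.

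Egfr, the receptor of most ligands of the family, stood at 11.29, 11.25 and 11.29 in the CD24+CD29+ arrays and at 9.98, 10.02 and 9.96 in the CD24-CD29- arrays. Every CD24+CD29+ array was above every CD24-CD29- array, and the gap was many times the spread within a group. The means were 11.28 ± 0.02 and 9.98 ± 0.03 (SD, n = 3 each), which is 2.45-fold (1.29 on the log2 scale, SE 0.04, limma adjusted p = 4e-07).

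Egfr has 7 probe sets, and these did not give the same size. Across the 45037 probe sets that were not controls, 63.9% passed, 29.2% as higher and 34.8% as lower, and the groups did not overlap for 68.2%. The main probe set of Egfr and a second from the same transcript record rose by 1.29 and 1.54 (95% intervals 1.18 to 1.40 and 1.39 to 1.70). A further pair, from other records, rose by 0.70 and 0.78 (95% intervals 0.59 to 0.82 and 0.65 to 0.90). The intervals of the first pair lie above those of the second. On the brighter probe set of the second pair the CD24+CD29+ arrays stood at 10.90, 10.90 and 10.90, and the CD24-CD29- mean was 10.20 ± 0.05 (SD, n = 3). The other 3 probe sets, at means of 5.07 to 6.46, gave differences of -0.04, -0.11 and 0.04 that did not pass. Averaging all 7 gave Egfr a difference of 0.60 (limma adjusted p = 7.3e-06).

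The file gives no detection calls, so genes restricted to the eye, which mammary cells should not express, were used to describe values near background. The 31 such genes measured had means of 4.41 to 6.85, of which 17 fell, 2 rose and 12 missed the threshold (median -0.21). Their differences ran from -0.55 to 0.69, the highest that of Gnat2. The rises of Erbb4 and Nrg1, each 0.44, lie within that span. Their median level was 5.32. All but a few lay at or below 6.20, so the top of the 4.41 to 6.85 range rests on those few. The 3 Egfr probe sets that did not pass lie in that range, as does the CD24-CD29- mean of 5.78 of the probe set that rose by 1.54. Dim genes thus tended to be lower in CD24+CD29+ cells on these arrays: of 1882 genes with a mean under 5, 5.15% were called higher and 40.2% lower.

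Erbb2, the partner receptor without a ligand, stood at 9.36, 9.30 and 9.37 in the CD24+CD29+ group, and at 8.70, 8.95 and 8.81 in CD24-CD29- arrays. Its single probe set separated the groups, and the CD24-CD29- arrays were the more variable. The means of 9.34 ± 0.04 and 8.82 ± 0.12 (SD, n = 3 each) differed by 1.43-fold (log2 0.52, SE 0.07, limma adjusted p = 0.00025). Quantile normalization, which forces the arrays to a common distribution, and cyclic loess, which removes trends with intensity between arrays, lowered the difference to 0.32 each, with adjusted p-values of 0.0041 and 0.0046 from the same limma fit.

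Erbb3, the neuregulin receptor with little kinase activity, ran the other way. It stood at 11.70, 11.64 and 11.69 in double-positive arrays and at 12.11, 12.13 and 12.11 in CD24-CD29- arrays. The groups were apart, with a spread of 0.03 and 0.01 (SD, n = 3 each). Relative to the other genes it fell by 0.44 on the log2 scale (SE 0.04, limma adjusted p = 4.2e-05), and it was 0.78 higher when scaled to the poly-A controls. The dim second probe set of Erbb3, at 4.57 ± 0.11 against 5.16 ± 0.05 (SD, n = 3 each), also fell, by 0.59. Both of these means lie in the range of the eye-restricted genes, of which 17 of 31 fell, so this probe set adds little.

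Erbb4, the receptor tied to lactation, was read by a single dim probe set. Its values were 5.09, 4.99 and 5.14 in CD24+CD29+ arrays and 4.52, 4.58 and 4.82 in CD24-CD29- arrays. These values lie within the range of the eye-restricted genes, so expression of Erbb4 cannot be told from background here. The groups did not overlap, and the difference of 0.44 passed (SE 0.08, limma adjusted p = 0.002). Its sign was opposite to that of most called genes at this level.

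The changes of the receptors were also compared with each other within each array. A constant shift of a whole array cannot alter this, but a trend with level can. Egfr changed by 1.74 more than Erbb3: the within-array difference was -0.40 ± 0.01 in the double-positive group and -2.13 ± 0.02 in the double-negative group (SD, n = 3 each). Egfr changed by 0.77 more than Erbb2, and Erbb2 by 0.96 more than Erbb3. For each of these 3 pairs the groups did not overlap, and the exact permutation test, 2-sided, gave p = 0.1, the smallest that 3 arrays against 3 allow, or 0.12 adjusted over the 6 pairs. The 3 pairs with Erbb4 were computed as well, but its probe set was not shown to be above background, so they do not compare receptors and nothing is read from them. Averaging the probe sets of each gene, Egfr minus Erbb2 was 0.08 and Egfr minus Erbb3 1.12, so the size of the gap between Egfr and Erbb2 rests on which Egfr probe sets are read. That mean includes the Egfr probe sets in the range of the eye-restricted genes. The others rose by 0.70 to 1.54, against 0.52 for Erbb2. The 95% intervals of the smallest, 0.59 to 0.82, and of Erbb2, 0.36 to 0.68, overlap. After quantile normalization, Egfr minus Erbb3 was 1.64, Erbb2 minus Erbb3 0.78 and Egfr minus Erbb2 0.86.

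**Figure D2:**
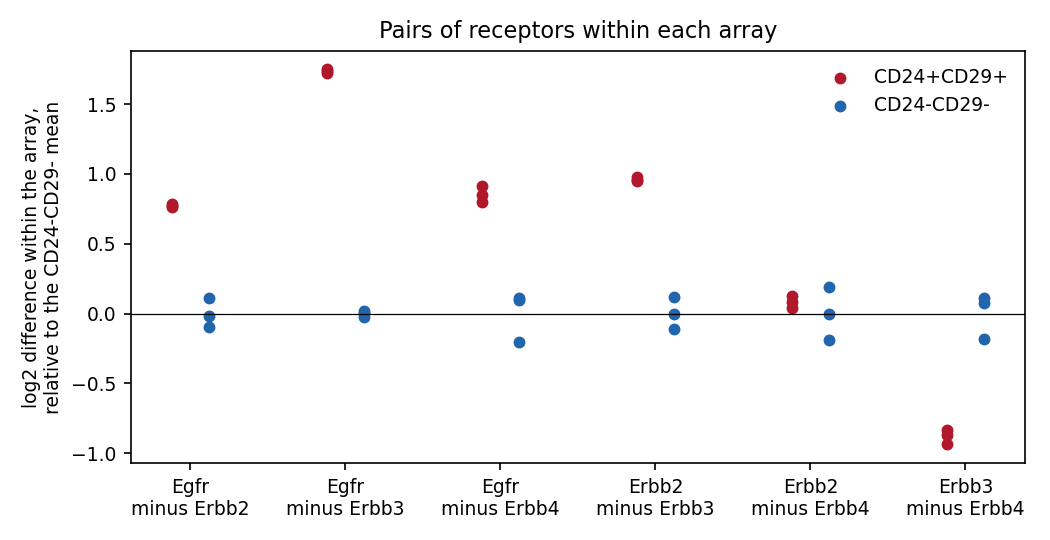
Log2 difference between the main probe sets of 2 receptors within each array, set to 0 at the mean of the CD24-CD29- arrays; each point is 1 array, 3 per group. The CD24+CD29+ arrays lie 1.74 above for Egfr minus Erbb3, and the 3 pairs with Erbb4 rest on a probe set not shown to be above background.

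Both Egfr and Erbb2 lie on mouse chromosome 11, and both RefSeq start sites had a promoter window in the reference (GRCm38.p6). They are shown because these are the receptors that rose at levels above the eye-restricted genes. Each run is the 250 bases before the start site, 5′ to 3′ on the gene's own strand, at chr11:16751953-16752202 (plus strand) for Egfr and chr11:98412234-98412483 (plus strand) for Erbb2. Capitals mark a match to the GC box GGGCGG on either strand, the motif of the Sp1 family of factors.
Egfr: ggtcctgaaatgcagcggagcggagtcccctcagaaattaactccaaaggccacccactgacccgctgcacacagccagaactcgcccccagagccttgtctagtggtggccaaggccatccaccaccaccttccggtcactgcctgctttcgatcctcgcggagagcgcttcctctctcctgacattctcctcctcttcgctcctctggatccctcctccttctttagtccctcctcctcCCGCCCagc
Erbb2: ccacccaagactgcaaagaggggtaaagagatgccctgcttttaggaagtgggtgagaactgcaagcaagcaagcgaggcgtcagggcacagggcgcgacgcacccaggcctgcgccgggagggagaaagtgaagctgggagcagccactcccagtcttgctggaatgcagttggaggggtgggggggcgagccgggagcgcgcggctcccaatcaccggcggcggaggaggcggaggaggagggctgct
The windows were 60.8% and 66.0% G or C, against a median of 52.4% over 32817 RefSeq promoter windows cut in the same way. Egfr held 1 GC box and Erbb2 none, where 32.7% of all windows held at least 1. Neither held the TATA box TATAAA (12.4% of all windows), the AP-1 site TGACTCA (4.46%) or the cAMP response element TGACGTCA (1.55%), searched on both strands. In all, 5 of the 9 measured members had a window, and the GC box was also absent from those of Erbb4 and Btc and present at 2 places in that of Tgfa. A match or its absence is a description of these letters and says nothing about binding in these cells.

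The genes around Erbb2, which are often gained with it in human breast cancers, were mixed. Their median difference was -0.08, and 6 of the 12 measured fell, 2 rose and 4 missed the threshold. Directly before Erbb2 in the RefSeq order lies Pgap3, which did not pass at 0.03, and directly after it Mien1, at -0.17, which passed (limma adjusted p = 0.011) and was 1.05 after poly-A scaling. Stard3, which moves cholesterol between membranes, rose by 0.38, the muscle gene Tcap fell by 0.49 relative to the other genes, and the ubiquitin ligase gene Fbxl20 fell by 0.75, with 1 of its 4 probe sets passing in the other direction and a mean over them of -0.27. Tcap, at 5.55 and 6.04, lies in the range of the eye-restricted genes, and Stard3 was at 0.22 after quantile normalization. Tcap and Fbxl20 turned to 0.73 and 0.47 with scaling to the poly-A controls. Grb7, an adaptor that binds ERBB2, stood at 9.02 ± 0.07 against 8.87 ± 0.10 (SD, n = 3 each) and did not pass (limma adjusted p = 0.058).

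Of the ligands, Ereg had the largest rise among the members. Epiregulin stood at 9.26, 9.28 and 9.15 in double-positive cells, and at 8.59, 8.44 and 8.45 in CD24-CD29- arrays. The groups were well apart. The means of 9.23 ± 0.07 and 8.49 ± 0.08 (SD, n = 3 each) differed by 1.67-fold (log2 0.74, SE 0.06, limma adjusted p = 2.1e-05).

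Hbegf, which encodes a heparin-binding ligand made as a membrane-bound precursor, was lower relative to the other genes. Its values were 11.75, 11.72 and 11.77 in CD24+CD29+ arrays and 12.27, 12.28 and 12.30 in CD24-CD29- arrays. The groups were apart, with SDs of 0.03 and 0.02 (n = 3 each). It fell by 0.53 on the log2 scale (SE 0.04, limma adjusted p = 1.5e-05) and its second probe set, from the same transcript record, fell by 0.77, while scaling to the poly-A controls turned the main difference to 0.69.

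Tgfa, the ligand of EGFR alone, gave no single answer. Its main probe set stood at 8.97, 8.78 and 8.75 against 8.78, 8.79 and 8.65. These values overlap, and the difference of 0.09 did not pass (95% interval -0.08 to 0.26, limma adjusted p = 0.29). The other 2 Tgfa probe sets, from the same transcript record, were lower in CD24+CD29+ cells: the brighter by -0.59 (6.58 ± 0.12 against 7.17 ± 0.09) and the dimmer by -0.47 (5.26 ± 0.17 against 5.73 ± 0.09; SD, n = 3 each). On both the groups did not overlap, and the CD24+CD29+ means lie in the range of the eye-restricted genes. The mean of the 3 probe sets gave -0.32 (limma adjusted p = 0.00043), and the main probe set gave -0.12 after quantile normalization, which did not pass.

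Btc and Nrg1 were dimmer. Betacellulin, at 7.14 ± 0.03 against 6.90 ± 0.10 (SD, n = 3 each), rose by 0.25 (SE 0.06, limma adjusted p = 0.0067). This call was lost under quantile normalization (0.14, limma adjusted p = 0.084) and with the mean of its 2 probe sets (0.09, adjusted p = 0.17), and the other probe set did not pass at -0.07. Nrg1, the neuregulin ligand of ERBB3 and ERBB4, stood at 6.64, 6.60 and 6.53 in the CD24+CD29+ group, and at 6.09, 6.22 and 6.15 in CD24-CD29- arrays. The groups did not overlap, although all 6 values lie in the range of the eye-restricted genes. Its rise was 0.44 (SE 0.05, limma adjusted p = 0.00018), where 28.0% of the 2515 genes with a mean of 6 to 7 were called higher and 45.8% lower.

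**Figure D3:**
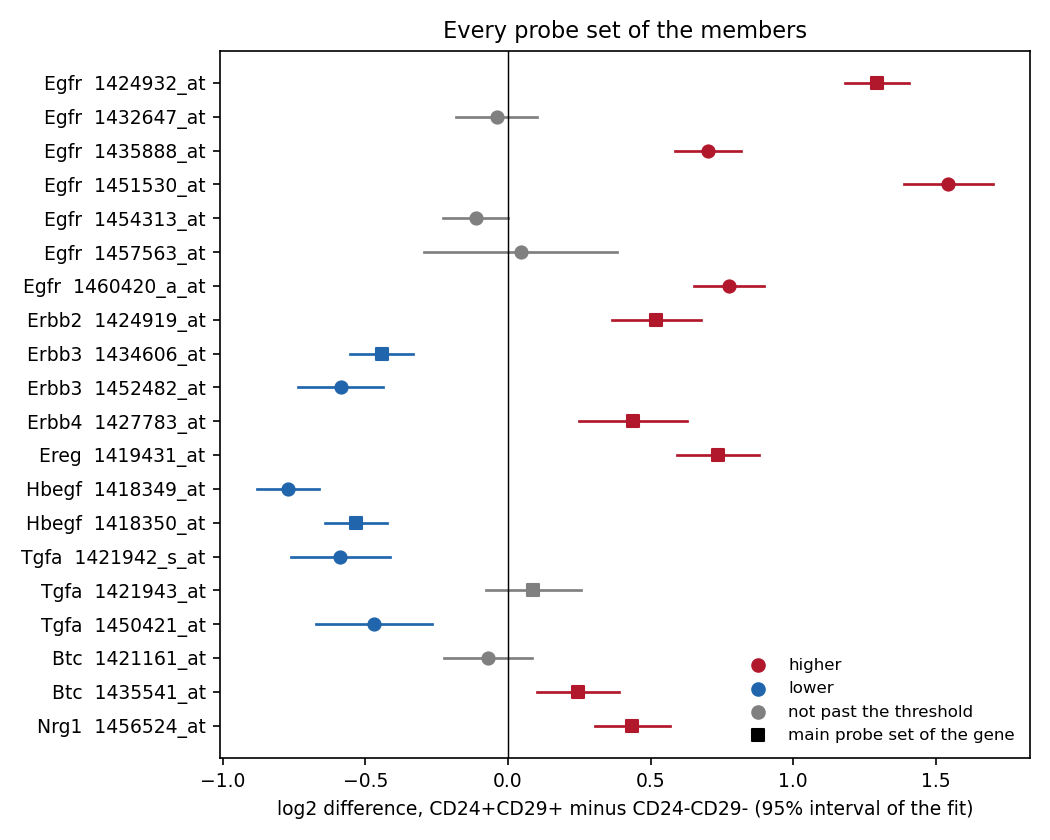
Log2 difference, CD24+CD29+ minus CD24-CD29-, of each of the 20 probe sets of the members, with the 95% interval of the limma fit over all probe sets; squares are the main probe set of a gene, red and blue mark those past the adjusted threshold. In all, 9 rose, 6 fell and 5 did not pass, where 63.9% of all probe sets passed, and the probe sets of Egfr and of Tgfa spread widest.

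Over the 20 probe sets of the members, 9 rose, 6 fell and 5 did not pass, and the groups did not overlap for 16. Of all probe sets 63.9% passed, 29.2% as higher and 34.8% as lower, and the groups did not overlap for 68.2%. The counts therefore do not set the family apart. Of the 11 receptor probe sets, the 6 that rose belong to Egfr, Erbb2 and Erbb4 and the 2 that fell to Erbb3. No member had probe sets called in opposite directions.

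The 5 other ligands of the family were read from a list of pathway genes. Epgn, which encodes epigen, an EGFR ligand, had a larger difference on its single probe set than the main probe set of any member: 9.24, 9.27 and 9.27 in CD24+CD29+ arrays against 7.82, 7.89 and 7.84. The groups were far apart, at 9.26 ± 0.01 and 7.85 ± 0.04 (SD, n = 3 each), which is 2.66-fold (1.41 on the log2 scale, SE 0.04, limma adjusted p = 3.2e-07). Egf and Nrg2 fell by 0.18 and 0.29 relative to the other genes and were at 1.04 and 0.93 when scaled to the poly-A controls. The call of Egf was lost after cyclic loess (-0.09, limma adjusted p = 0.056) and that of Nrg2 with the mean of its probe sets (-0.13, adjusted p = 0.083). Nrg3 and Nrg4, at 0.20 and -0.16, did not pass. Nrg3 passed after quantile normalization (0.31, limma adjusted p = 0.017) and cyclic loess (0.33, adjusted p = 0.016), and Nrg4 with the mean of its probe sets (-0.15, adjusted p = 0.019). The second probe set of Nrg3 passed in the other direction (-0.24, limma adjusted p = 0.015). The mean of the Nrg3 probe sets, at -0.02, did not pass. Egf, Nrg2, Nrg3 and Nrg4 all had means within the range of the eye-restricted genes.

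Epgn, Ereg, Areg and Btc follow each other in this order on mouse chromosome 5 in the RefSeq table, with no other protein-coding gene between them. The 3 of them measured all rose, by 1.41, 0.74 and 0.25 in that order. The call of Btc was lost under quantile normalization. Rises were common at these levels: 58.8% of genes with means of 8 to 9, as for Epgn and Ereg, were called higher. At means of 7 to 8, as for Btc, 49.6% were. Tgfa, Hbegf and Nrg1 lie on other chromosomes.

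Ligands act after release from the membrane, and genes for that step differed widely in size. Among 12 such genes the median difference was 0.14: 6 rose, 2 fell and 4 missed the threshold. Adam8, a metalloproteinase, was 4.66-fold higher (8.68 ± 0.06 against 6.46 ± 0.05, SD, n = 3 each), and Adam12, which can shed HB-EGF, was 2.79-fold higher, or 0.95 on the log2 scale with the mean of its probe sets against 1.48. The CD24-CD29- means of both, 6.46 and 6.85, lie at the upper end of the range of the eye-restricted genes. These folds are therefore against a group not shown to be above background. Timp3, which is an inhibitor of these enzymes and not a protease, was 2.69-fold higher, and all 4 of its probe sets rose. Adam17, the main sheddase of the EGFR ligands, is named for that role and not by size: it rose by 0.99, from 9.64, 9.44 and 9.54 to 10.54, 10.52 and 10.55. Rhbdl2, a rhomboid protease gene named after its values were seen, was the largest fall of the list at -0.97 (6.40 ± 0.03 against 7.37 ± 0.12, SD, n = 3 each), with its CD24+CD29+ mean in the range of the eye-restricted genes. Adam10, named for its role, did not pass (0.02, 95% interval -0.08 to 0.12).

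Genes that restrain the receptors or act on that restraint were mixed. They do not all work in the same direction, so their counts are not a measure of restraint. All 16 were measured, and 8 rose, 3 fell and 5 missed the threshold (median 0.08). Lrig3 was 4.06-fold higher (9.05 ± 0.03 against 7.03 ± 0.18, SD, n = 3 each), and all 3 of its probe sets rose. It belongs to the family of LRIG1, a protein that lowers ErbB levels. Cbl, the ubiquitin ligase that marks EGFR for breakdown, was 1.65-fold higher. Ubash3b, a phosphatase that opposes Cbl, fell by 0.57 relative to the other genes and was at 0.66 with scaling to the poly-A controls. Its means of 5.63 and 6.20 lie in the range of the eye-restricted genes, 1 of its 3 probe sets did not pass, and their mean gave -0.33. Of genes with a mean of 5 to 6, 56.6% were called lower. Lrig1, named for its role, did not pass at -0.11, and Errfi1, a direct inhibitor of the EGFR kinase likewise named for its role, fell by 0.29 relative to the other genes and was at 0.93 after poly-A scaling.

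The adaptors and kinases below the receptors were evenly divided. There were 13 that rose, 12 that fell and 6 that missed the threshold among 31, the median was 0.06 and none reached 2-fold. Pik3r2, a regulatory subunit of PI3K, rose by 0.78, the catalytic subunit gene Pik3ca by 0.71 and the MEK kinase gene Map2k2 by 0.71 (0.47 with the mean of its probe sets). For Pik3ca, 2 of its 6 probe sets passed in the other direction and their mean did not pass (0.05, limma adjusted p = 0.33).

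Genes that ERK signalling induces did not move as a group. Their median difference was 0.05, and of 19 genes 7 rose, 7 fell and 5 missed the threshold. Spry4, a feedback inhibitor of receptor tyrosine kinase signalling, had the largest difference of the list on main probe sets: 5.91, 5.94 and 6.17 in CD24+CD29+ arrays against 8.28, 8.20 and 8.23. All 4 of its probe sets fell, by 2.23 on the main probe set (SE 0.07, limma adjusted p = 4.9e-07), and it remained lower, at -1.01, when scaled to the poly-A controls. Its CD24+CD29+ mean of 6.01 lies in the range of the eye-restricted genes, so the size of this difference rests on a group not shown to be above background, and the mean of its probe sets gave -1.09. The ETS factor gene Etv5 fell by 1.05, but was at 0.17 under that scaling and at -0.55 with the mean of its probe sets. The other Etv5 probe sets had group means of 5.01 to 5.68, in the range of the eye-restricted genes. Fosl1, which encodes the AP-1 factor FRA1, was 1.75-fold higher (log2 0.81, or 0.48 with the mean of its probe sets). Its second probe set, at 4.54 and 4.39, was not shown to be above background. The early response genes Egr1 and Fos, named for their role, did not pass, at 0.05 and 0.01, with means of 13.87 to 14.43, where the brightest probe set of each array stood at 14.91 to 14.95.

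**Figure D4:**
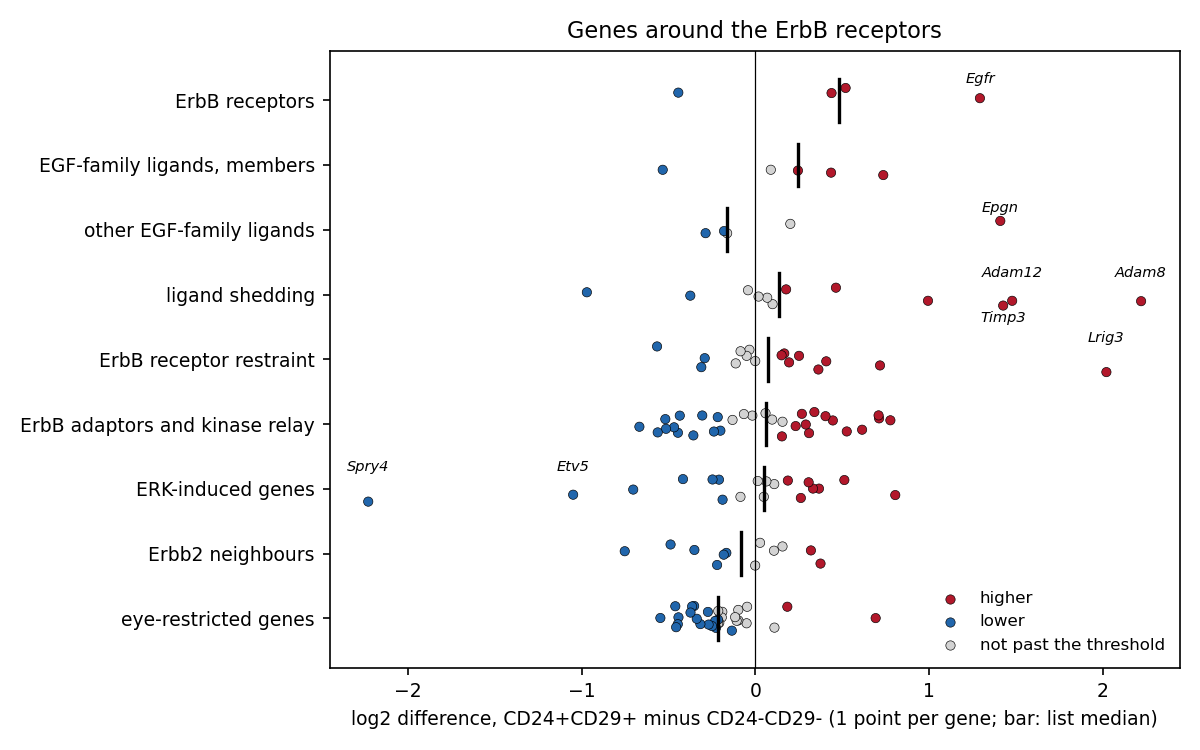
Log2 difference, CD24+CD29+ minus CD24-CD29-, of each gene in the lists around the receptors, 1 point per gene with a bar at the list median; red and blue mark genes past the adjusted threshold and grey those that did not pass, and genes of at least 2-fold are named. The list medians lie between -0.21 for the eye-restricted genes and 0.48 for the receptors, and single genes such as Epgn, Adam8, Lrig3 and Spry4 lie far from them.

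Genes that mark cell types differed between the same arrays. Egfr and Nrg1 are known in basal and stromal cells of the gland and Erbb3 in luminal cells, so these lists are given beside them. Of all genes, 34.4% were called higher and 36.5% lower. The basal and fibroblast lists had median levels of 9.82 and 8.32. At means of 9 to 10 and 8 to 9, 57.7% and 58.8% of genes were called higher. The luminal and leukocyte lists had median levels of 10.01 and 5.56. At means of 10 to 11 and 5 to 6, 23.8% and 56.6% of genes were called lower. Of 10 basal and myoepithelial markers 7 rose and 2 fell, and their summed log2 level ran from 14.71 to 14.77 in the double-positive and from 14.05 to 14.08 in the double-negative arrays. The 2 that fell were Mylk (-0.84, with 1 probe set passing in the other direction) and Oxtr (-0.26). Of 14 luminal markers 3 rose and 9 fell, with summed levels of 15.47 to 15.51 and 15.69 to 15.70. The 3 that rose were Esr1 (1.11), Pgr (0.86) and Foxa1 (0.73). Esr1 and Pgr each had 1 probe set passing in the other direction. Of 11 fibroblast markers 10 rose and none fell, with summed levels of 14.84 to 14.93 and 14.24 to 14.26. A sum adds unlogged values of different probes, so the brightest gene of a list weighs most. In these 3 lists that gene was Krt5, Epcam and Postn, and a sum need not follow the rest of its list. Of 11 leukocyte markers none rose and 6 fell, with summed levels of 9.29 to 9.39 and 9.99 to 10.1. Cd74, an antigen presentation gene, stood at 6.89 and 8.47 and Csf1r, a macrophage receptor gene, at 6.75 and 7.63, while the pan-leukocyte gene Ptprc, at 4.85 and 4.94, lay within the range of the eye-restricted genes. Of 8 endothelial markers 3 rose and 1 fell, and of 6 adipocyte markers 1 rose and 3 fell, with all but Esam with a mean over arrays within that range. The part of these markers in the differences of the ErbB genes was not tested.

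The labels were set against the genes of the sorted proteins and of epithelium. Itgb1, the gene of CD29, rose by 0.87, and Cd24a by 0.21, from a level of 12.79 ± 0.03 (SD, n = 3) in the cells sorted as negative. Epcam, an epithelial surface gene, stood at 14.11 and 14.13 and did not pass. Arrays of a group correlated over genes at 0.998 to 0.999 and arrays of different groups at 0.974 to 0.978, where genes are not independent replicates. No pair of arrays shared more than 7 identical probe set values.

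The 3 genes whose centred log2 values over the 6 arrays lay closest to those of Egfr were Scarb1, Spon1 and Pdlim1, at Euclidean distances of 0.05, 0.05 and 0.06. They encode a lipoprotein receptor, a matrix protein and an actin-binding LIM protein, and they differed by 1.31, 1.32 and 1.33. With 2 groups of 3 tight arrays, this measure mostly finds genes with a difference of the same size.

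**Figure D5:**
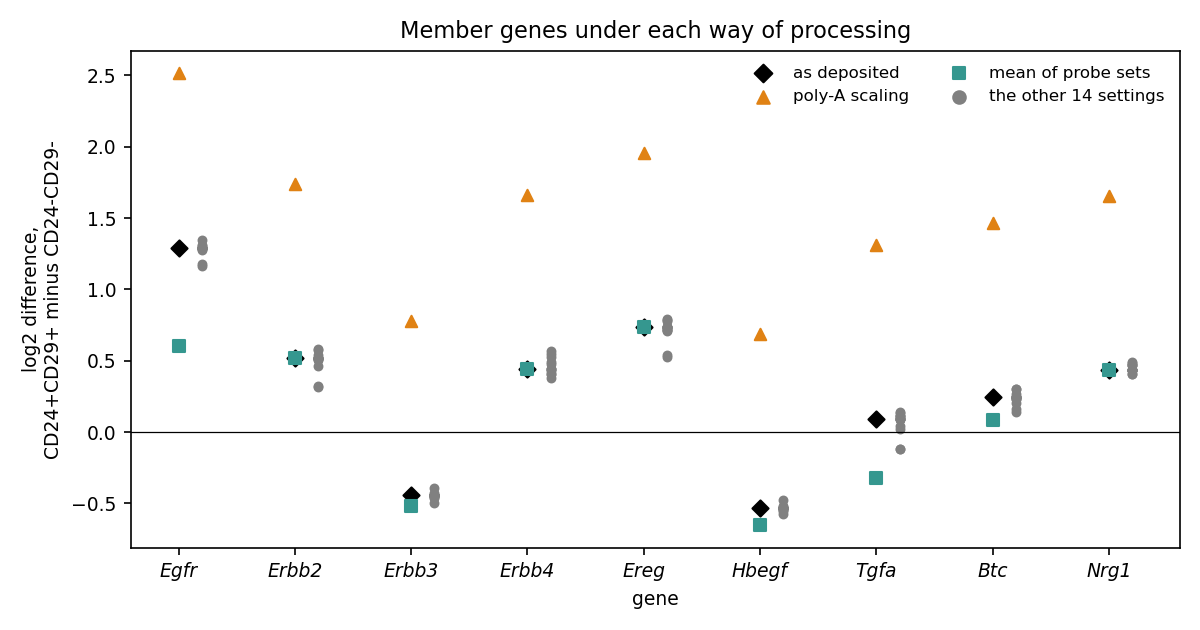
Log2 difference, CD24+CD29+ minus CD24-CD29-, of each measured member under 17 ways of processing: black, as deposited; orange, scaled to the poly-A controls; green, mean over the probe sets of a gene; grey, the others. Scaling to the poly-A controls puts all 9 above 0, Erbb3 and Hbegf included, and Tgfa changes sign among the others.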

How the data were processed

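Biotin-labelled cRNA of 6 samples was hybridised to Affymetrix Mouse430_2 arrays, per the labels' protocols. The deposited values are on the log2 scale and were made by the authors with RMA and Partek, per the submitters' processing notes. Versions, settings and genome build: not given in the sources used here. RMA subtracts background and normalizes between arrays, and it compresses differences of dim genes. The deposited arrays shared a mean of 6.92 but not a common distribution. The SD over probe sets was 2.09 to 2.14 in CD24+CD29+ arrays and 2.00 to 2.03 in CD24-CD29- arrays. The lower quartile was 5.20 to 5.27 and 5.37 to 5.41. Of 45101 probe sets, 64 were controls, 34945 had exactly 1 symbol in the platform table, 932 several and 9160 none. Areg was not found there by its symbol.

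The groups were compared over 18193 genes with limma 3.58.1 in R 4.3.3 (lmFit, eBayes, no block), and in a second fit over 45037 probe sets. The fit was tested on simulated data. The number of arrays limits the precision. Replicate numbers were not used as a pairing, because no label says that equal numbers are paired. The deviations of same-numbered arrays correlated at 0.22, -0.05 and 0.04, which with 3 arrays per group cannot decide whether they were. All members are named, with the 3 largest called genes of each pathway list and those past 2-fold, and genes named for their role are marked. Members and lists were chosen with earlier results of these data known. Alternatives were quantile normalization, cyclic loess, median centring, poly-A scaling, other choices of probe set, filters on dim genes, the replicate block, a trend and each array left out.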

Additional observations from a re-analysis of the deposited data

How the results depend on the processing

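Across 16 other settings the counts of 6 higher and 2 lower members stayed within 1.5 times except with scaling to the poly-A controls, which gave 0 lower members, and 20 higher and 0 lower member probe sets. That scaling turned Erbb3 to 0.78, Hbegf to 0.69, Nrg4 to 1.06, Egf to 1.04, Nrg2 to 0.93, Ubash3b to 0.66, Etv5 to 0.17, Tcap to 0.73 and Fbxl20 to 0.47. It adds the same amount to every gene, which is how the signs turned. With the mean of probe sets Tgfa was -0.32. The difference between the changes of Erbb2 and Erbb4 was -0.23 after quantile normalization, -0.25 after cyclic loess, and -0.014 to 0.18 as each array was left out, the lowest without replicate 3 of CD24-CD29-. Leaving out each array in turn kept Egfr at 1.28 to 1.31, Erbb3 at -0.46 to -0.42 and Hbegf at -0.55 to -0.52, and all calls of members held. Of 192 list counts 27 moved by over 1.5 times, 12 of them under poly-A scaling and 9 under quantile normalization or cyclic loess. With the replicate number as a block, 12867 genes passed against 12889, and the members gave 6 higher and 2 lower; it added calls for Nrg3 (adjusted p = 0.035) and Nrg4 (0.039) and 3 of 6 arrays correlated best with their own number. The filters on dim genes leave out Erbb4, whose signal over background cannot be judged here.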
